A study of Mus musculus with 6 samples.

Results

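The collagen genes were described over 6 arrays of sorted mouse embryoid body cells. A gene was taken when a feature of the array was annotated with a single symbol of the form Col, a type number, a and a chain number. This rule gave 42 collagen genes of the 30701 genes measured, each with 1 feature, and it used no measured value. The features of Col7a1 and Col6a4 were not taken because the annotation lists Mir711 and Dvwa beside them; they lay at 5.11 to 5.19 and 4.35 to 4.53 in HOXB4 cells, against 5.08 to 5.27 and 4.52 to 4.7 in control cells. The 2 groups were HOXB4 and control, with 3 arrays each, at day 4 of embryoid body differentiation. All 6 samples came from mouse embryonic stem cells of the line that the labels call iRunx, and in all of them the cells sorted for the arrays were positive for Flk1 and negative for PDGFRα. The HOXB4 cells expressed HOXB4 from a retrovirus carrying tdTomato, and the control cells did not. The labels do not state whether control cells carried an empty virus, whether a Runx gene was induced, or how many clones the line stands for. HOXB4 itself was not checked, because the feature listed for Hoxb4 also names Mir10a and only features naming 1 gene entered the fit. The submitters describe the replicates as independent experiments. Kdr, which encodes Flk1, stood at 14.33, 13.68 and 13.82 in HOXB4 cells and at 13.72, 14.12 and 13.83 in control cells, so the sorting marker was present in every sample.

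Collagens are triple helical proteins of the extracellular matrix, and each helix is wound from 3 chains that can come from different genes. Fibrillar collagens form the fibres of connective tissue, type IV collagen forms the sheet of basement membranes under endothelium and epithelium, and types XV and XVIII sit in the basement membrane zone. Types IX, XII and their relatives, the FACIT collagens, attach to fibres, type VI forms beaded filaments, and a few collagens span the cell membrane. In the early embryo, endothelium lays down type IV collagen, while mesenchyme is the main source of type I. The chain genes Col4a1 and Col4a2 lie head to head, and their products form the common type IV helix.

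Sequences before the annotated start sites are shown for Col4a1 and Col4a2, the pair of neighbouring collagen genes that was above background, and for Col18a1, which ordered the 6 arrays in the same way as the pair. Each is the 250 bases before the start, read 5′ to 3′ on the strand of the gene, from RefSeq sequence of build GRCm38.p6. Capitals mark matches on either strand to GGGCGG, the GC box of Sp factors, or to CCAAT.
Col4a1, minus strand, chr8:11312827-11313076: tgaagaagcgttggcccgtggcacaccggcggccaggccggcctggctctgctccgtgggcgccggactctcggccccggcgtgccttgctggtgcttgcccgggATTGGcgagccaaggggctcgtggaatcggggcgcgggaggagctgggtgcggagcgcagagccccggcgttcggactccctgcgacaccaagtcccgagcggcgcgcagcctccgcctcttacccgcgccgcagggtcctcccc
Col4a2, plus strand, chr8:11312555-11312804: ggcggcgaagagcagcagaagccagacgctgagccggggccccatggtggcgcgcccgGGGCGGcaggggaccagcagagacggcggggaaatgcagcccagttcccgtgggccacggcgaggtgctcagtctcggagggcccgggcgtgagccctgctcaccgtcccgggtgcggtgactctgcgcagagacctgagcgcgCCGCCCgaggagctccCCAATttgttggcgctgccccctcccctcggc
Col18a1, start 1, minus strand, chr10:77166531-77166780: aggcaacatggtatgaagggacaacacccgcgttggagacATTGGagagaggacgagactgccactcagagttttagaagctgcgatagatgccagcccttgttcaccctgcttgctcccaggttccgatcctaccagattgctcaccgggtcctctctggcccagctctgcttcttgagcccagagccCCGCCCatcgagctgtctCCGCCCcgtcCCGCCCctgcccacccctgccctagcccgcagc
Col18a1, start 2, minus strand, chr10:77113706-77113955: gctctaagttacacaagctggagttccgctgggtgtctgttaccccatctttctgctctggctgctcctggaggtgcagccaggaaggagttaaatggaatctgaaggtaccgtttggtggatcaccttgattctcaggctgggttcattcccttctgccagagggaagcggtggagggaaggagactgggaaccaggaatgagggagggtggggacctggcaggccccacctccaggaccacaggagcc

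The annotated starts of Col4a1 and Col4a2 lie 21 bases apart on opposite strands, and the annotated genes overlap between them. The window before each start therefore lies inside the other gene. The Col4a1 window held 1 CCAAT match and no GC box, and the Col4a2 window held 2 GC boxes and 1 CCAAT match. The window of Col18a1 start 1 held 3 GC boxes and 1 CCAAT match, and that of start 2 held neither. Over the windows of all genes in the table, 32.7% held a GC box and 33.8% a CCAAT match. Of the 36 windows found for 33 of the 42 collagen genes, 20 held a GC box and 11 a CCAAT match. Also searched on both strands were TATAAA, the ETS core CCGGAA and the GATA site AGATAA, which 12.4%, 12% and 9.99% of all windows held. Of the collagen windows, 5, 0 and 2 held them, and the 4 windows shown held none of the 3. The letters of the 5 motifs do not contain one another. A match is a description of letters and not of binding. Of 7 pairs of collagen genes that are neighbours on a chromosome, Col4a1 and Col4a2 were the pair with both members above background.

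Few collagens lay above the background of the array. Levels are log2 RMA values, in which the median gene lay at 5.10 to 5.22, and background was taken as the 95th percentile of 23 antigenomic features, which lay at 5.05 to 5.68 in the 6 arrays. By this measure 6 of the 42 collagens (14.3%) were above background in at least 3 arrays, against 47.0% of all genes. They were the type IV chains Col4a1 and Col4a2, the multiplexin Col18a1, the type I chains Col1a1 and Col1a2, and the transmembrane Col23a1. Another 3, Col2a1, Col5a1 and Col27a1, were above it in 2 arrays, HOXB4 2 and control 3, the arrays with the lowest background value. The remaining 33 were above it in 0 arrays, with values of 3.33 to 5.50.

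**Figure D1:**
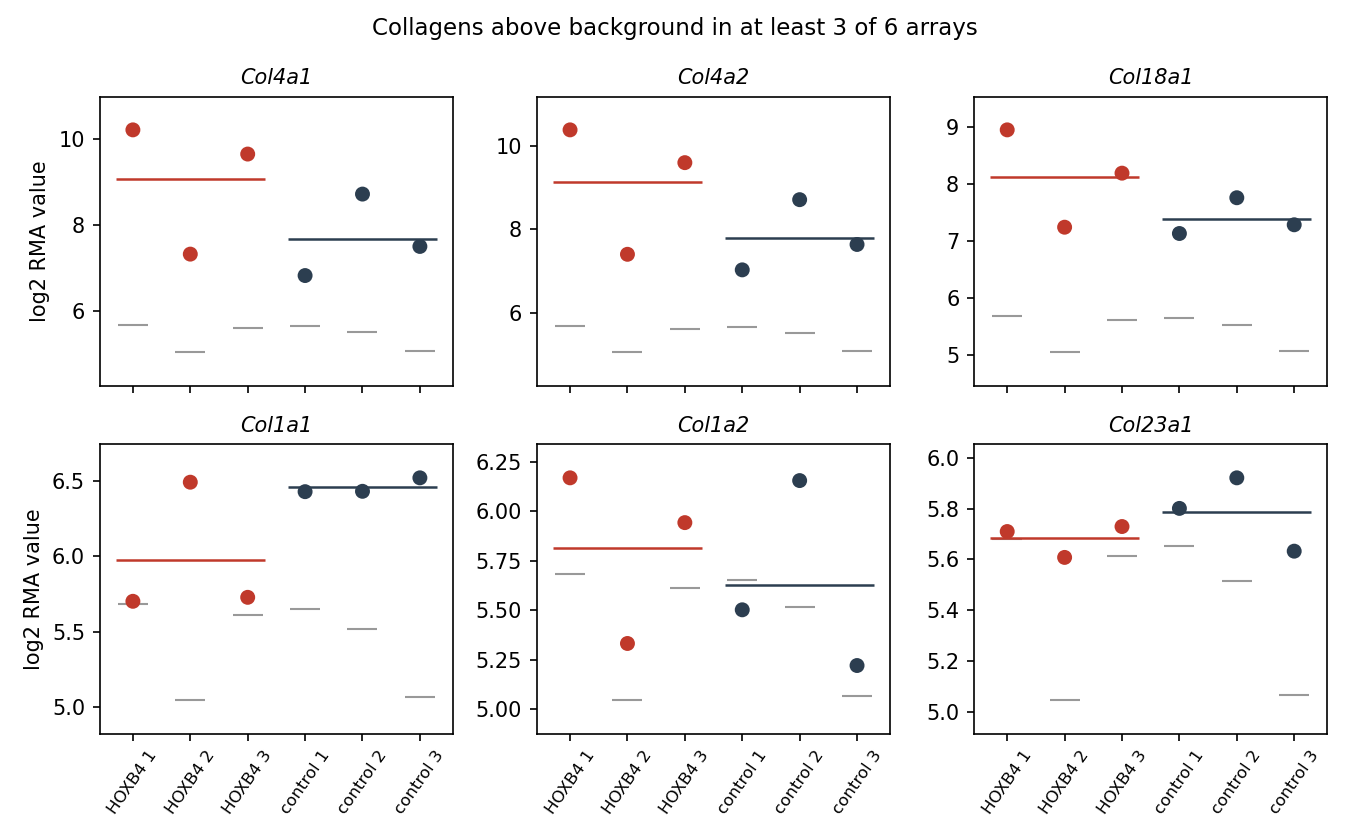
Log2 RMA values (y axis) of the 6 collagens above background in at least 3 arrays, for HOXB4 1 to 3 (red) and control 1 to 3 (dark) on the x axis. Long lines are group means, short grey marks are the 95th percentile of the background features of each array, and each panel has its own y range. HOXB4 1, HOXB4 3 and control 2 are the highest arrays for Col4a1, Col4a2 and Col18a1, while HOXB4 1 and HOXB4 3 are the lowest for Col1a1.

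No collagen gene passed the test for a difference between HOXB4 and control cells. With limma, fitted over all genes and adjusted by the Benjamini-Hochberg method, 0 of 42 collagens were called at 0.05, as were 0 of all genes (0%), and adjusted p ran from 0.605 to 0.969 over the collagens. At an unadjusted p of 0.05, 0 collagens were counted, against 8.19% of all genes. The median difference, HOXB4 minus control, was -0.08 on the log2 scale over the collagens and -0.04 over all genes. The difference was above 0 for 10 collagens and below 0 for 32 (76.2%, against 60.0% of all genes below 0). The samples are bulk, so fewer cells of a type and less RNA per cell cannot be told apart in any value given here.

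The largest differences between arrays were in the main type IV chains, where HOXB4 1 and HOXB4 3 were far above HOXB4 2. Col4a1, which encodes the alpha 1 chain, stood at 10.22, 7.33 and 9.66 in HOXB4 cells 1 to 3, against 6.83, 8.73 and 7.51 in control cells 1 to 3. HOXB4 1 and 3 lay above every control, but HOXB4 2 lay below controls 2 and 3, so the groups overlapped. Col4a1 averaged 9.07 ± 1.53 in HOXB4 cells and 7.69 ± 0.96 in control cells (SD, n = 3 each). The difference was 1.38 (SE 0.81, 95% interval -0.54 to 3.30; limma adjusted p = 0.652), which is 2.6-fold.

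Col4a2, the gene of the partner chain, followed the same arrays. It stood at 10.38, 7.40 and 9.59 in HOXB4 cells, against 7.02, 8.70 and 7.63 in control cells. Its difference was 1.34 (SE 0.79, 95% interval -0.54 to 3.21; limma adjusted p = 0.655). Both chains rested on single arrays: without HOXB4 2 the differences were 2.25 for Col4a1 and 2.20 for Col4a2, and without HOXB4 1 they were 0.80 and 0.71. Neither setting called them.

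The other 4 type IV chains were near the floor of the array. Col4a3 and Col4a4, chains of the kidney glomerular membrane, lay at 3.94 to 4.38 in HOXB4 cells and 3.99 to 4.43 in control cells. Col4a5 stood at 4.19, 4.35 and 4.32 in HOXB4 cells, against 4.59, 4.35 and 4.42 in control cells, and its neighbour Col4a6 at 4.08, 4.42 and 4.17 against 4.58, 4.31 and 4.58. All 4 differences were below 0, from -0.27 for Col4a6 (SE 0.13; limma adjusted p = 0.621) to -0.06 for Col4a4, and Col4a1 and Col4a2 were the type IV genes with differences above 0. The median of the 6 type IV genes, -0.06, therefore describes the dim chains and not the main pair.

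Col18a1, whose protein carries the fragment endostatin, was the third collagen with a wide spread. It stood at 8.94, 7.24 and 8.18 in HOXB4 cells, against 7.13, 7.75 and 7.28 in control cells. HOXB4 2 again lay among the controls. The difference was 0.73 (SE 0.41, 95% interval -0.25 to 1.72; limma adjusted p = 0.647), 1.18 without HOXB4 2 and 0.32 without HOXB4 1. Its relative Col15a1 stayed at 4.07 to 4.18 in HOXB4 cells and 4.12 to 4.22 in control cells, below background.

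Col4a1, Col4a2 and Col18a1 were the 3 collagens whose range over the 6 arrays exceeded 1 log2 unit (7.14%, against 9.21% of all genes). From high to low, each ordered the arrays as HOXB4 1, HOXB4 3, control 2, control 3, HOXB4 2 and control 1. The same order was held by 318 of the 30701 genes, and by 164 of the 2827 genes with a range above 1.

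Endothelial markers shared their 3 highest arrays, HOXB4 1, HOXB4 3 and control 2, with these 3 collagens. Genes outside the endothelial list, such as Tal1 and Col1a2, had the same 3 highest arrays. The share of all genes with them was not counted. Pecam1 stood at 11.75, 7.75 and 10.71 in HOXB4 cells, against 8.10, 10.63 and 7.96 in control cells, and the VEGF receptor gene Flt1 at 11.63, 8.95 and 11.05 against 8.98, 10.30 and 9.22. HOXB4 1, HOXB4 3 and control 2 were the 3 highest arrays for all 7 listed markers, but only Pecam1 and Flt1 had HOXB4 3 above control 2, as the 3 collagens did. The other 5 had control 2 above HOXB4 3, as for Cdh5 at 15.11, 11.29 and 12.91 in HOXB4 cells against 12.31, 14.05 and 11.83 in control cells. The 7 markers (Pecam1, Cdh5, Tek, Emcn, Flt1, Esam and Tie1) had differences above 0, 0 passed, and their summed log2 level ran from 55.8 to 76.3 in HOXB4 cells and from 57.7 to 69.0 in control cells. Emcn alone was below background in every array. The part of the endothelial markers in the collagen values was not tested. For primitive endoderm, another source of basement membrane, 10 markers were listed. Afp, Ttr and Foxa2 were below background in all 6 arrays and 7 were above it. Whether the 7 mark primitive endoderm in these cells was not tested. The summed level of the 10 was 64.9 to 68.9 in HOXB4 cells and 67.5 to 68.0 in control cells, but the sum joins opposite patterns. Dab2 and Sox17 ordered all 6 arrays as the endothelial markers Cdh5 and Tek did. Gata4 and Gata6 were lowest in HOXB4 1 and HOXB4 3. Dab2 stood at 9.34, 6.76 and 7.76 in HOXB4 cells, against 7.46, 8.08 and 7.12 in control cells. Gata4 stood at 5.89, 7.67 and 5.64 against 7.90, 6.93 and 7.89. Of the 10 differences 5 were above 0 and 5 below, and the part of these markers in the collagen values was not tested. Blood markers summed to 35.7 to 38.2 in HOXB4 cells and 35.9 to 38.7 in control cells, with 2 differences above 0 and 3 below. That sum also joins opposite patterns. Tal1 stood at 9.63, 8.25 and 9.82 in HOXB4 cells, against 8.18, 9.10 and 8.29 in control cells. Hbb-bh1 stood at 10.02, 13.57 and 9.84 against 12.63, 10.74 and 13.52. Cardiac markers summed to 17.6 to 18.2 and 17.7 to 18.6, with 1 difference above 0 and 2 below. Tnnt2 had the same 3 highest arrays as the endothelial markers, while Myl7 was highest in control 1 and lowest in HOXB4 1. Markers of undifferentiated cells summed to 23.0 to 27.1 and 22.4 to 24.8, with all 3 differences above 0 and 0 passed. Zfp42 was higher in HOXB4 cells without overlap, as 3.24% of all genes were. It stood at 8.49, 8.39 and 9.21 in HOXB4 cells, against 7.86, 8.24 and 7.92 in control cells. For Pou5f1 and Nanog the groups overlapped.

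**Figure D2:**
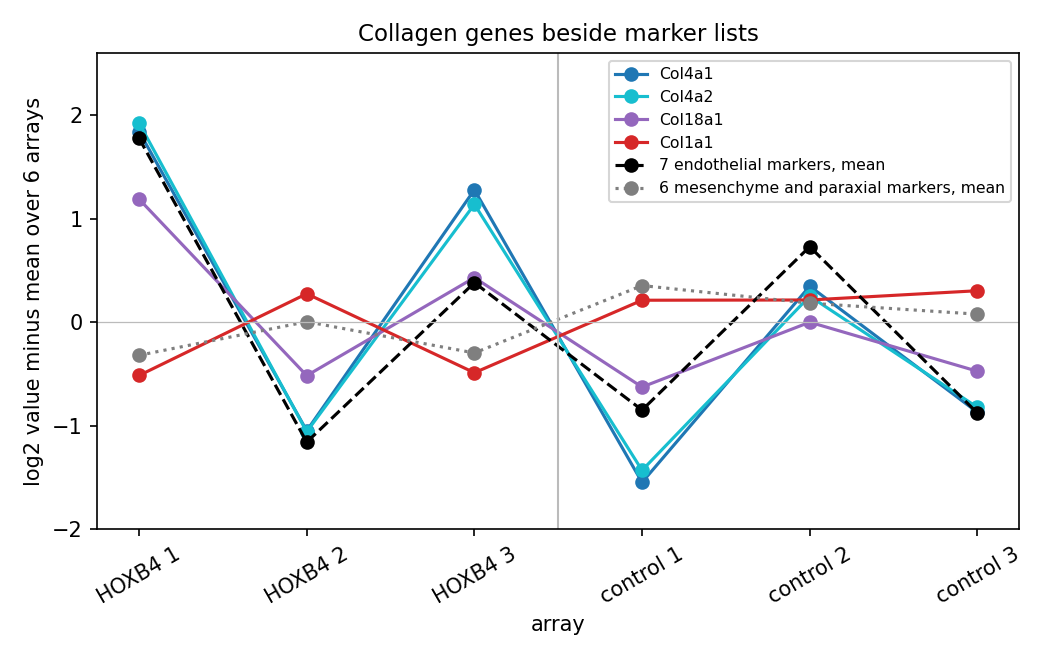
Log2 value minus the mean over the 6 arrays (y axis) for Col4a1, Col4a2, Col18a1 and Col1a1, beside the mean of 7 endothelial markers and of 6 mesenchyme and paraxial mesoderm markers, by array (x axis; HOXB4 1 to 3, then control 1 to 3). Lines join values of the same gene or list and imply no order of arrays. Both type IV chains and the endothelial mean are high in HOXB4 1 and HOXB4 3 and in control 2, while Col1a1 is low in HOXB4 1 and HOXB4 3 and does not dip in control 2.

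The other basement membrane genes listed did not share the array order of Col4a1, Col4a2 and Col18a1. The laminin genes Lama1 and Lamb1, chains of the early embryonic laminin, had differences of 0.40 (SE 0.13) and 0.34 (SE 0.14). HOXB4 2 was the highest array for each (limma adjusted p = 0.605 for both). Lama1 was higher in HOXB4 cells without overlap, as 3.24% of all genes were, while the groups overlapped for Lamb1. It stood at 6.69, 6.84 and 6.82 for Lama1 in HOXB4 cells, against 6.38, 6.15 and 6.61 in control cells. The perlecan gene Hspg2, a heparan sulphate proteoglycan of basement membranes, stood at 10.55, 10.65 and 10.10 in HOXB4 cells, against 9.62, 9.90 and 10.57 in control cells. Nid2, a nidogen that links laminin to type IV collagen, ran the other way, at 8.72, 10.83 and 9.22 against 10.55, 9.56 and 10.68. Sparc, a collagen binding glycoprotein, stood at 14.17, 13.99 and 13.24 against 14.14, 14.10 and 14.15. Their differences were 0.40 (SE 0.26) for Hspg2, -0.67 (SE 0.57) for Nid2 and -0.33 (SE 0.23) for Sparc, and each moved with single arrays. Hspg2 was at 0.20 without control 1 and 0.67 without control 3, Nid2 at -0.24 without HOXB4 1 and -1.29 without HOXB4 2 or -1.02 without control 2, and Sparc at -0.05 without HOXB4 3 and -0.52 without HOXB4 1. Of the 16 listed matrix partners 15 were measured and 0 passed, with 9 differences above 0 and 6 below. Among them Fbn2, Tgfbi and Tnc had HOXB4 1, HOXB4 3 and control 2 as their highest arrays, and the others measured did not. Nid1 was highest in HOXB4 1 and next in control 2, at 9.96, 8.90 and 8.90 in HOXB4 cells against 9.05, 9.29 and 9.20 in control cells. Thbs1 and Tnc, genes of adhesion modulating matrix proteins, had differences of 0.88 (SE 0.55) and 0.59 (SE 0.39), and for both the groups overlapped. Thbs1 was at 0.59 without control 1, 0.47 without control 2 and 1.58 without control 3, and Tnc at 0.28 without HOXB4 1 and 0.98 without HOXB4 2.

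Type I collagen is built from the products of Col1a1 and Col1a2, and these genes did not move together. Col1a1 stood at 5.70, 6.49 and 5.73 in HOXB4 cells, against 6.43, 6.43 and 6.52 in control cells. HOXB4 1 and 3 lay below every control and near the background value of their arrays, 5.68 and 5.61, while HOXB4 2 lay within the controls. Col1a1 averaged 5.97 ± 0.45 in HOXB4 cells and 6.46 ± 0.05 in control cells (SD, n = 3 each), a difference of -0.49 (SE 0.21, 95% interval -1.0 to 0.02; limma adjusted p = 0.605). It had the smallest unadjusted p of the 42 collagens, 0.0591, and its difference was -0.74 without HOXB4 2.

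Col1a2 stood at 6.17, 5.33 and 5.94 in HOXB4 cells, against 5.50, 6.15 and 5.22 in control cells. HOXB4 1, HOXB4 3 and control 2 were its highest arrays, as for the type IV pair, though in another order. Its difference of 0.19 (SE 0.30; limma adjusted p = 0.859) was -0.01 without control 3 and 0.45 without control 2. Whether the type I chains differ from each other in their response was not tested.

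Of 6 markers of mesenchyme and paraxial mesoderm, 1 shared the pattern of Col1a1. Pdgfrb, a receptor gene of mural and mesenchymal cells, stood at 6.09, 7.94 and 6.11 in HOXB4 cells, against 8.01, 7.72 and 8.04 in control cells, so HOXB4 1 and 3 were again the low arrays. The other 5 did not: Twist1 was below every control in HOXB4 2 as well, at 4.85, 5.13 and 4.99 in HOXB4 cells against 6.23, 5.51 and 5.42 in control cells, Tcf15 and Meox1 were lowest in control 3, and Foxc2 was highest in HOXB4 1. Over the list, 5 markers had differences below 0 and 0 passed, and the summed log2 level of all 6 was 29.3 to 31.3 in HOXB4 cells and 31.7 to 33.4 in control cells. Prrx1, Meox1 and Foxc2 were below background in all arrays. All samples had been sorted as PDGFRα-negative, a gate that would remove PDGFRα-positive mesenchyme and paraxial mesoderm. The part of these markers in the Col1a1 values was not tested.

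None of the other fibrillar genes was above background in more than 2 arrays. Col3a1, the companion of type I in soft tissue, stood at 4.36, 4.41 and 4.52 in HOXB4 cells, against 4.56, 4.44 and 4.43 in control cells. Col2a1, the cartilage collagen, stood at 5.0, 5.26 and 5.09 against 5.43, 5.25 and 5.27, a difference of -0.20 (SE 0.10; limma adjusted p = 0.639). Col5a1 and Col5a2 encode chains of type V, which starts type I fibres. Col5a1 stood at 4.91, 5.70 and 4.97 in HOXB4 cells, against 5.32, 5.04 and 5.54 in control cells, high in HOXB4 2 as Col1a1 was. Col5a2 stood at 5.17, 4.81 and 5.23 against 5.01, 4.98 and 4.83, and so had HOXB4 1 and 3 as its highest arrays. The 11 fibrillar genes had a median difference of -0.10, with 3 above 0, 8 below 0 and 0 passed.

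Type VI collagen was below background throughout. Col6a1 stood at 3.91, 4.08 and 3.96 in HOXB4 cells, against 4.22, 4.11 and 4.09 in control cells, a difference of -0.15 (SE 0.09; limma adjusted p = 0.661). Col6a2 and Col6a3, which complete the classic filament, had differences of -0.10 (SE 0.08) and -0.12 (SE 0.10). All 5 type VI genes had differences below 0, with a median of -0.15, and each was lowest in HOXB4 1 and highest in control 1.

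The remaining types were dim as well, apart from Col23a1. The 9 FACIT genes had a median difference of -0.06 and a range from -0.09 for Col16a1 to 0.22 for Col12a1. The network forming Col8a1, Col8a2 and Col10a1 had differences of 0.07, -0.17 and 0.18. All 4 transmembrane genes were below 0, with a median of -0.10. Col23a1, a transmembrane collagen, stood at 5.71, 5.61 and 5.73 in HOXB4 cells, against 5.80, 5.92 and 5.63 in control cells, above background in all 6 arrays, and differed by -0.10 (SE 0.10; limma adjusted p = 0.788). Col26a1 and Col28a1 differed by -0.16 and -0.05.

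**Figure D3:**
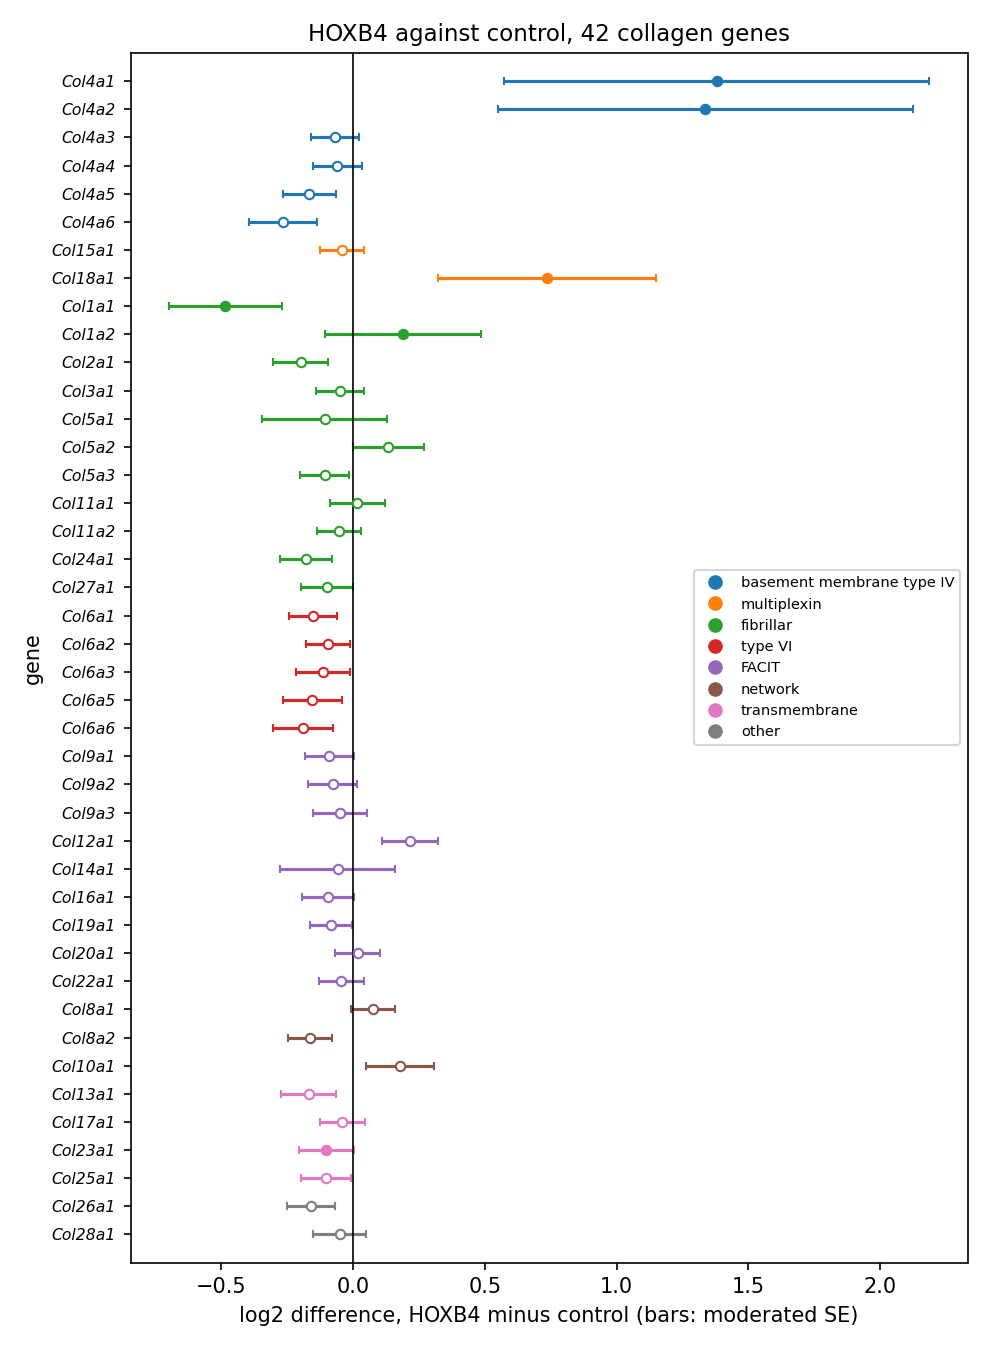
Log2 difference, HOXB4 minus control (x axis), for each of the 42 collagen genes (y axis), coloured by class; bars are the moderated SE, filled points are genes above background in at least 3 arrays and open points are the others. Col4a1, Col4a2 and Col18a1 lie at 1.38, 1.34 and 0.73 with wide bars, and 32 of the 42 genes lie below 0.

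All 3 HOXB4 values lay below all 3 control values for 7 collagens (16.7%, against 10.2% of all genes), and above them for 0 (against 3.24% of all genes). The 7, looked up after their values were seen, were Col4a5, Col6a1, Col6a6, Col8a2, Col19a1, Col24a1 and Col26a1, with differences from -0.19 to -0.08. All 7 were below background in every array. For some the highest HOXB4 value and the lowest control value nearly met. These were 4.350 and 4.353 for Col4a5, 4.083 and 4.085 for Col6a1, and 4.831 and 4.834 for Col24a1. The count therefore rests in part on very small margins. They were 21.2% of the 33 collagens below background in all arrays, against 7.45% of the 14445 genes below it. Of those 33 collagens 0 were higher without overlap, against 3.06% of those genes. The count of lower collagens was 11 without control 2, 13 without HOXB4 2, 15 without HOXB4 3 and 16 without control 3. It was 7 without HOXB4 1 or control 1. With arrays centred on their medians 13 collagens were lower and 2 higher. Fewer arrays leave less room for overlap in any gene. The shares over all genes were not counted in these settings, so these counts have nothing to be read against.

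The dim collagens often had the same highest and lowest arrays, though their full orders differed. Of the 33 below background in all arrays, 25 were highest in control 1 and 26 were lowest in HOXB4 1. Among the 14445 genes below background in all arrays the shares were 40.8% highest in control 1 and 28.5% lowest in HOXB4 1. Control 1 also had the highest median over all genes, 5.22, and HOXB4 1 the lowest, 5.10. The part of these array medians in the dim collagen values was not tested. The median range of the 33 dim collagens over the 6 arrays was 0.29, against 3.39 for Col4a1.

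**Figure D4:**
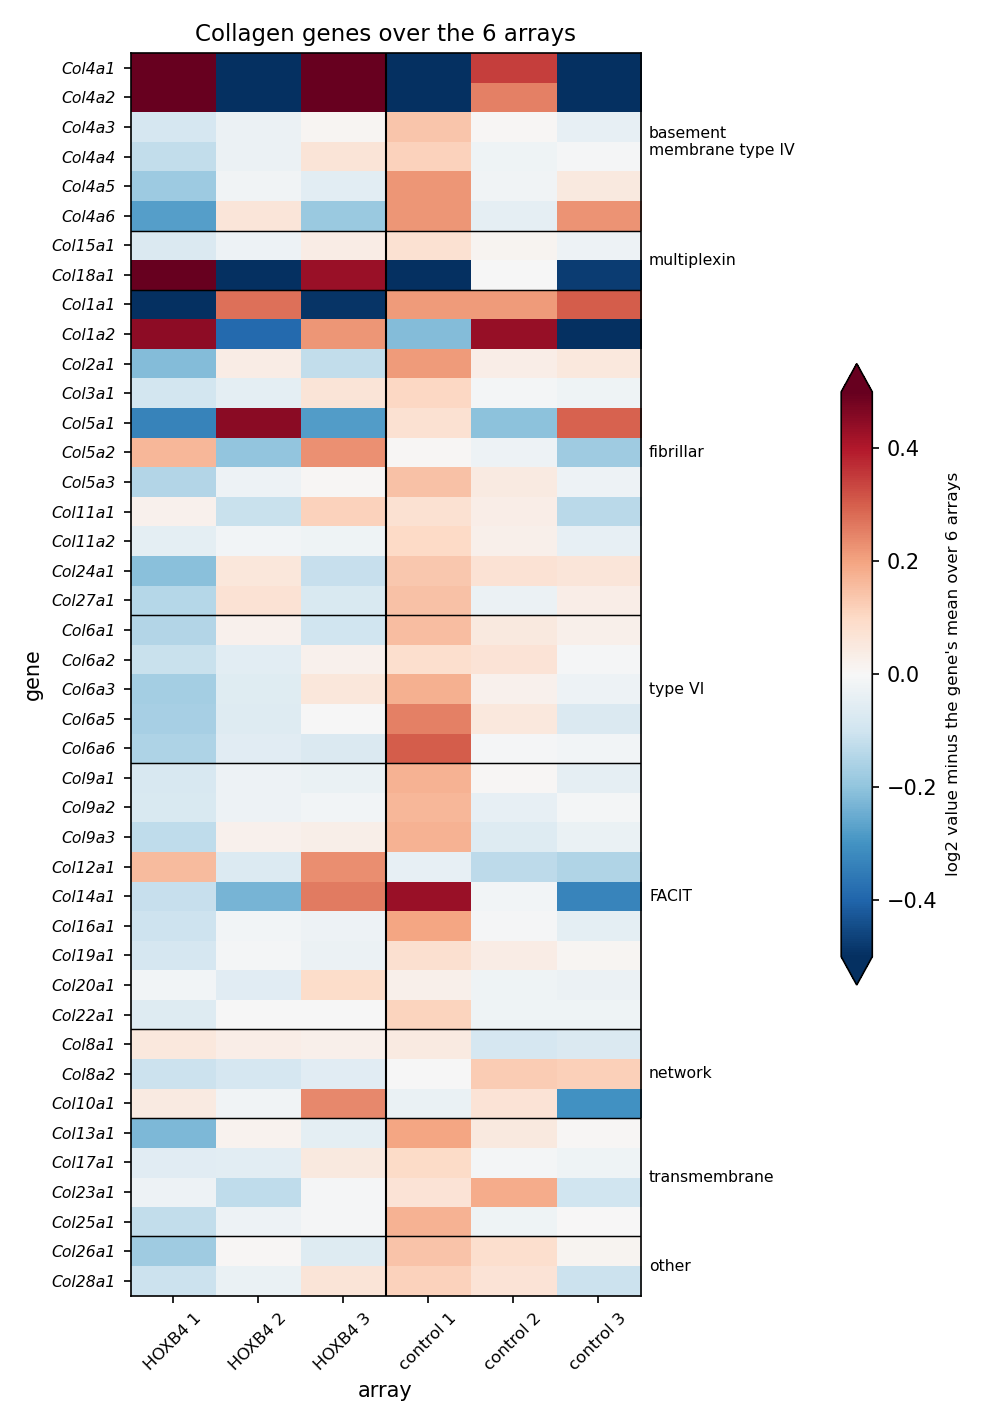
Log2 value minus the mean of the gene over the 6 arrays (colour, saturated beyond 0.5 in either direction) for the 42 collagens (rows, by class) in HOXB4 1 to 3 and control 1 to 3 (columns). Col4a1, Col4a2 and Col18a1 are red in HOXB4 1 and HOXB4 3 and Col1a1 is blue there, while most other rows are pale, with their highest value often in control 1 and their lowest often in HOXB4 1.

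Col1a1, Col4a1 and Col4a2 were called in a fit added after the values were seen, in which both arrays numbered 2 were left out. Their differences were then -0.76, 2.77 and 2.66 (limma adjusted p = 0.0465, 0.0123 and 0.0195), and 3 of 42 collagens were called, against 2.66% of all genes (817). HOXB4 2 lies on the control side for all 3 genes, and control 2 lies on the HOXB4 side for the type IV pair, so leaving these arrays out widens the gap between the groups by construction. Without HOXB4 2 alone 0 collagens were called, against 0.150% of all genes, and without both arrays numbered 1 or both numbered 3 the count was 0.

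Of 33 listed genes that modify and secrete collagen 29 were measured, 22 of them were above background in at least 3 arrays, and 0 passed. Of the 29, 10 had differences above 0 and 19 below, with a median of -0.06 and a range from -1.26 to 0.52. P3h2 was lowest, at 7.58, 10.05 and 7.55 in HOXB4 cells against 9.74, 8.87 and 10.34 in control cells. Its difference was -1.26 (SE 0.72; limma adjusted p = 0.650), and that of Adamts3 was -0.97 (SE 0.41; limma adjusted p = 0.605). For both the groups overlapped, and both are named here after their values were seen. Serpinh1, the collagen chaperone HSP47, stood at 7.37, 7.42 and 7.04 in HOXB4 cells, against 7.47, 7.61 and 7.77 in control cells. P4ha2, a catalytic subunit of prolyl 4-hydroxylase, stood at 6.05, 6.20 and 6.05 against 6.40, 6.39 and 6.28. Of the 29, HOXB4 cells were lower without overlap for 4 (13.8%, against 10.2% of all genes) and higher without overlap for 1 (3.45%, against 3.24% of all genes), so both shares were near those of all genes. The 4 were Serpinh1, P4ha2, the prolyl isomerase gene Ppib and the lysyl hydroxylase gene Plod2, which is named here after its values were seen. Their differences were -0.34 (SE 0.14) for Serpinh1, -0.26 (SE 0.09) for P4ha2, -0.25 (SE 0.09) for Ppib and -0.19 (SE 0.10) for Plod2 (limma adjusted p = 0.605 for the first 3 and 0.630 for Plod2). The Serpinh1 difference was -0.22 without HOXB4 3, and its second, dimmer feature gave -0.16.

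Bmp1, a protease that trims the ends of fibrillar procollagens, ran the other way, at 8.93, 8.46 and 8.41 in HOXB4 cells against 7.80, 8.08 and 8.36 in control cells. It was the 1 gene of the list with HOXB4 higher without overlap, and its difference was 0.52 (SE 0.19; limma adjusted p = 0.605). Sec23a, a coat protein gene of procollagen export, and P3h1, a prolyl 3-hydroxylase gene, had differences of 0.26 (SE 0.27) and 0.19 (SE 0.22), and were highest in HOXB4 1 and second highest in control 2. The crosslinking enzyme genes Lox and Loxl1 were below background in every array. Loxl3 was above it in 2 arrays and Loxl4 in 3, and Loxl2 was not measured. Loxl4 had a difference of -0.25 (SE 0.25), and its groups overlapped.

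Among the collagen receptors, Itgb1, the beta chain shared by the collagen binding integrins, stood at 14.83, 14.31 and 14.65 in HOXB4 cells, against 13.66, 14.35 and 14.34 in control cells. Its difference was 0.48 (SE 0.22; limma adjusted p = 0.615), or 0.25 without control 1. Itgb1 ordered the arrays as Col4a1, Col4a2 and Col18a1 did, an order held by 318 of the 30701 genes. Mrc2, an endocytic collagen receptor gene, stood at 5.02, 5.75 and 5.37 against 5.84, 5.37 and 5.80, a difference of -0.29 (SE 0.21) that was -0.11 without HOXB4 1. Of 9 measured receptor genes 0 passed, 2 had differences above 0 and 7 below, and Itgb1 and Mrc2 were the members above background in at least 3 arrays. Itga10, Itga11 and Ddr2 were below background in all 6 arrays.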

How the data were processed

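Expression was measured in 6 samples on 1 array each, from 100 ng of RNA labelled with the Affymetrix WT PLUS kit, per the labels' protocols. The deposited values are log2 summaries that the authors made with Affymetrix Expression Console and RMA, per the submitters' processing notes; their versions, settings and the build behind the array are not given in the sources. RMA equalises arrays and its values have no absolute scale, so levels of different genes were not compared in amount. Each gene was set against the background of its array, and summed log2 levels of a list were compared between arrays. Symbols were updated through a RefSeq table of assembly GRCm38.p6, and the brightest feature stood for each of 30701 genes; all 42 collagens had 1 feature. Groups came from the sample titles. HOXB4 minus control was fitted over all genes by a two-sided moderated test (R 4.3.3, limma 3.58.1) with Benjamini-Hochberg adjustment at 0.05 and without a replicate block; SE is moderated, and intervals are 95% from the same fit. The fit was tested on simulated data with independent noise in each gene and array. Those data lack differences between arrays that many genes share, so that setting was not tested. Same-numbered HOXB4 and control arrays deviated from their group means with correlations of -0.40, -0.59 and -0.35, so the numbers were not taken as pairs. The number of arrays limits the precision. Named genes were a fixed set of 15 chains, collagens above background with the smallest p (up to 8 per direction) and up to 3 genes per direction of each other list. Alternatives changed the prior, weights, normalization, filter, feature choice, block and arrays. Members, lists, tests and rules were chosen with earlier results of these data known. Tables and figures used Python 3.11.15, pandas 2.3.3 and matplotlib 3.10.9.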

Additional observations from a re-analysis of the deposited data

How the results depend on the processing

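The numbers of calls were 0 genes and 0 collagens in every alternative that kept all arrays: the replicate block (0 genes called, with 1294 genes at an unadjusted p of 0.05 against 2513 without it), a trended robust prior, no moderation, array weights, centring on array medians, cyclic loess, both filters, the mean of features and every feature. The smallest adjusted p over all genes was 0.923 with the block and 0.460 with array weights. When 1 array, or after the data were seen both arrays of a number, were left out, 0 to 817 genes and 0 to 3 collagens were called. Collagens without overlap then numbered 7 to 25 lower and 0 to 7 higher in HOXB4 cells. The shares of all genes without overlap were not counted in these or the following settings. With all arrays, centring on medians gave 13 lower and 2 higher, cyclic loess 2 higher, the filter above background 0 lower of 6 kept, and the filter on the mean 2 lower of 19 kept. The filter above background moved the median difference to 0.46 over 6 collagens, to 1.36 over the 2 type IV genes kept and to 0.32 over 2 genes of the other types; it can be met by 1 group alone, so these are partly selected. The filter on the mean gave 1.36 for the same 2 type IV genes and -0.13 for 4 genes of the other types. Over the settings that left out arrays, medians ran from -0.13 to 0.0017 for all collagens, -0.13 to -0.0091 for fibrillar, -0.13 to 0.019 for type IV, -0.22 to -0.046 for type VI, -0.11 to 0.02 for FACIT and -0.15 to 0.011 for other types. Differences that turned sign in these settings ran from -0.49 to 0.12 for Col5a1, -0.078 to 0.69 for Col1a2, -0.12 to 0.023 for Col3a1, -0.095 to 0.011 for Col15a1, -0.20 to 0.0029 for Col23a1, -0.0046 to 0.28 for Col5a2, -0.13 to 0.66 for Sec23a and -0.13 to 0.53 for P3h1. The causes were not tested. No named gene turned sign in an alternative that kept all arrays. Background, read from 23 features, limits statements on the 36 dim collagens.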
